A study of Homo sapiens with 8 samples.

Results

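The genes described here encode the Rab and ARF GTPases, vesicle coats, cargo adaptors, SNAREs and VPS proteins that move membrane and cargo between compartments. They were taken from the deposited table by gene symbol alone, with patterns for the RAB, ARF, VPS, SEC, COP, AP, STX and VAMP names, and 135 of its 9245 entries matched. By textbook role they form 13 families, of which the Rab GTPases (39 genes), the adaptor complexes (23) and the SNAREs (17) are the largest. The name patterns also took in VPS72, a chromatin protein, and SEC14L1, a lipid-binding protein.

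SK-BR-3, the cells used, is a long-established breast cancer line of human origin in which the ERBB2 gene is amplified, and TALENs, pairs of designed nucleases, had been used on it to delete microRNA genes. The study asked how messenger RNA levels change without mir-141 and mir-200c. There were 4 genotypes: mir-141 knockout, mir-200c knockout, knockout of both, and wild type. Both experimental sets held 1 library per genotype, and every knockout library was a single clone, named here by the gene it lacks: numbers 23 (mir-141), 11 (mir-200c) and 55 (both, the double clone) in set 1, and numbers 10, 29 and 61 in set 2. Clone and set can therefore not be told apart within a genotype, and nothing in the labels says how often a clone was cultured. All values are log2 ratios of a knockout clone to the wild type of its own set, so 0 is the wild-type level and a positive value is higher in the knockout.

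Rab GTPases switch between an inactive and an active, membrane-bound state and recruit the effectors that move, tether and fuse vesicles. COPII coats carry cargo out of the endoplasmic reticulum (ER), COPI coats return it, adaptor complexes select cargo at the Golgi, endosomes and plasma membrane, and SNAREs drive fusion. A microRNA lowers the messages that pair with its seed, bases 2 to 8. The mir-200 family is known for holding epithelial cells in the epithelial state, and SEC23A, a COPII coat subunit, is one of its established direct targets.

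The 5 mature microRNAs of the family are shown because their seeds, in capitals, define which sites each deleted gene could serve (RefSeq, GRCh38.p14).
hsa-miR-141-3p: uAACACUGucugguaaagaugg
hsa-miR-200a-3p: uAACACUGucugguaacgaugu
hsa-miR-200c-3p: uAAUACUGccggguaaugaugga
hsa-miR-200b-3p: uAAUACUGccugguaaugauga
hsa-miR-429: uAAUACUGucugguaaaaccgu
miR-141-3p (chr12:6964155-6964176, plus strand) shares its seed with miR-200a-3p, and miR-200c-3p (chr12:6963742-6963764, plus strand) shares its seed with miR-200b-3p and miR-429. The seeds of both deleted microRNAs differ at 1 base. The 3 relatives come from chromosome 1, which the knockouts did not target. Their levels, and those of the deleted microRNAs, were not analysed here.

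Facts about the table as a whole bear on every value below. Depth and expression level cannot be read from ratios, so a gene with few reads weighs as much as one with many. The 3 clones of set 1 share 1 wild-type library, so a ratio that is alike in all of them cannot be told apart from an unusual value in that library. The sets were unrelated across genes: over all entries the Pearson r between sets was 0.010 for the mir-141 knockout, 0.010 for the mir-200c knockout and 0.002 for the double knockout, and 63, 61 and 64 of the 135 trafficking genes had the same sign in both sets (46.7, 45.2 and 47.4%, beside 50.3, 51.2 and 50.9% of all entries). Entries that are chromosomal neighbours had related ratios in set 1 (Spearman rho 0.0884, 0.0749 and 0.112 in the 3 clones) and not in set 2 (−0.00915, 0.0134 and 0.00197). In 9 of 30 windows of 300 rows, the sets correlated best at a shift of at most 20 rows other than 0 rather than at one of 21 to 1500 rows (shifts within 20 rows were 1.47% of those tried). It is therefore in doubt whether set 2 values stand beside their own gene names. Set 1 is the primary source here, and set 2 values are given as listed. The epithelial markers EPCAM, KRT8 and KRT18 and the receptor ERBB2 were measured, with set 1 ratios between −0.19 and 0.24. Of 13 fibroblast and 13 blood cell markers, 3 of each were measured. Across the mir-141, mir-200c and double clones of set 1, the collagen genes COL5A2, COL5A1 and COL1A1 had 0.91, 0.69 and 1.28, then −0.29, 1.29 and −0.09, then −0.11, −0.41 and −0.15. The blood cell markers LCP1, CD68 and CORO1A had −0.13, 1.05 and −0.44, then 0.52, −0.48 and 0.40, then −0.01, −0.54 and −0.48. Some of these ratios are as far from 0 as those of the outlying trafficking genes, and their part in the results below was not tested. Ratios do not show whether their level is near 0, and in bulk RNA a change in the share of cells cannot be told apart from a change per cell.

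Most trafficking genes lay within 0.5 of wild type in set 1 (128, 121 and 126 of 135 across the mir-141, mir-200c and double clones). So did most entries of the whole table (8674, 7676 and 8097 of 9245). The SD of the trafficking gene log2 ratios was 0.22, 0.38 and 0.29 in these clones, beside 0.31, 0.43 and 0.40 over all entries. Their interquartile range, which extreme values move less, was 0.22, 0.42 and 0.30, beside 0.27, 0.46 and 0.38. In the mir-141 knockout, 3 of the 135 genes lay at or above a log2 ratio of 0.5, against 3.55% of all entries, and 4 at or below −0.5, against 2.63%. In the mir-200c knockout the counts were 9, against 9.05% of entries, and 5, against 7.92%. In the double knockout they were 5, against 7.36%, and 4, against 5.06%. As shares of the trafficking genes these counts are 2.22, 6.67 and 3.7% on the high side and 2.96, 3.7 and 2.96% on the low side. They are near or below the background in all 3 clones. Set 2 as listed had 6, 6 and 11 genes at or above 0.5 (7.44, 5.88 and 8.89% of entries). At or below −0.5 it had 5, 7 and 9 (5.13, 4.5 and 7.67%). Its SDs were 0.47, 0.35 and 0.46, beside 0.40, 0.36 and 0.46 over all entries. For double minus mir-141 in set 1, 2 genes lay at or above 0.5 (4.2% of entries) and 0 at or below −0.5 (2.23%). For double minus mir-200c the counts were 3 (5.4%) and 6 (5.43%), and for mir-200c minus mir-141 they were 9 (7.3%) and 4 (6.31%). With 1 library per genotype in a set, these counts carry no test.

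**Figure D1:**
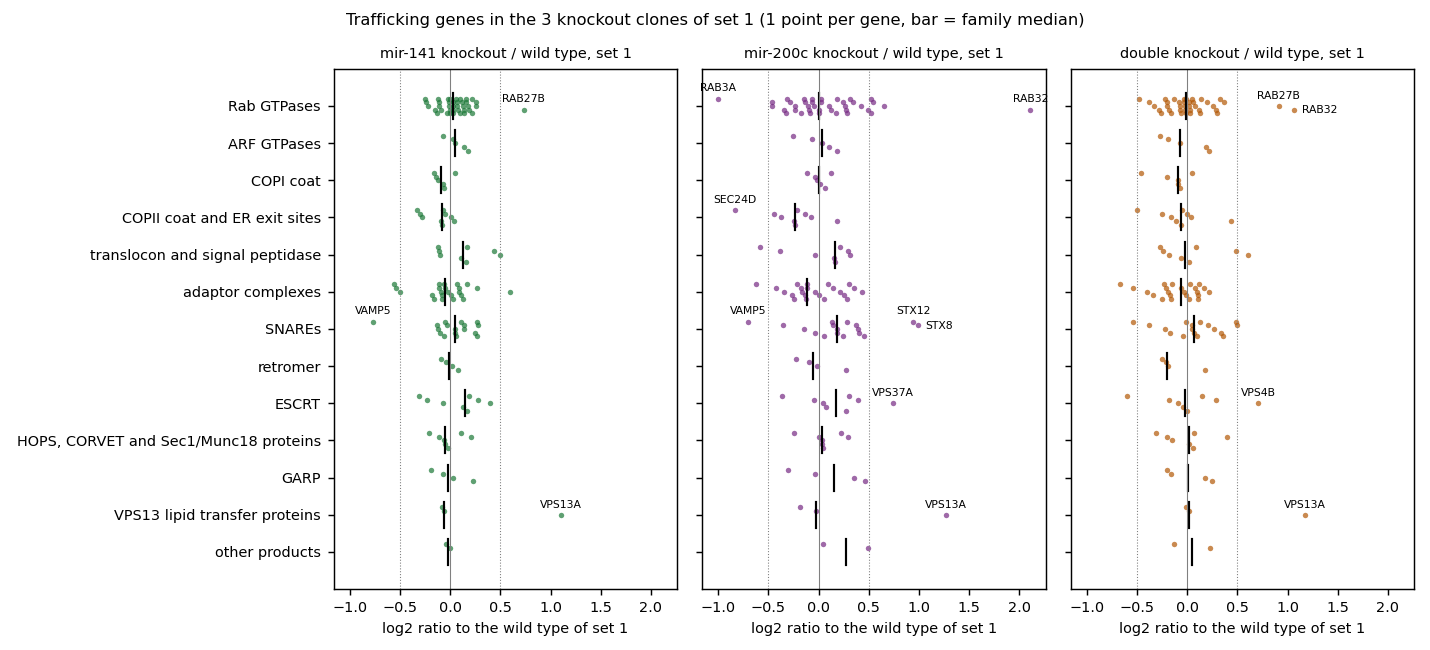
Log2 ratios to the set 1 wild type (x axis) of 135 trafficking genes by family (y axis) across the mir-141, mir-200c and double clones. Each point is a gene, black bars are family medians, and dotted lines mark −0.5 and 0.5. Most genes lie between the dotted lines, and RAB32 (2.11 in the mir-200c knockout) and VPS13A (1.10, 1.27 and 1.17) stand farthest to the right.

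Across both sets, limma called 0 of the 9245 entries at an adjusted p under 0.05 in each of the 6 contrasts between genotypes, and so 0 trafficking genes (background 0%). At an unadjusted p under 0.05 it listed 1 trafficking gene for mir-141 knockout versus wild type (2.68% of all entries), 3 for mir-200c knockout versus wild type (5.4%) and 3 for double knockout versus wild type (6.28%). For the double knockout, 4 were listed against the mir-141 knockout (2.68%) and 1 against the mir-200c knockout (2.52%), and 5 for the mir-200c against the mir-141 knockout (4.4%). The interaction of both losses listed 1 (1.7%). These means join both sets and hold only if a row is the same gene in both. Simulated data were made with matching rows and normal noise drawn independently for each gene and library, without shifts shared by chromosomal neighbours. For loss of mir-200c, the fit recovered 61% of 100 genes moved by a log2 of 1. It recovered 91% of 100 moved by 2, and also called 8 genes that were not moved. These shares hold for such noise only. An additive limma model of both losses on the 4 libraries of set 1 alone, with 1 residual degree of freedom, also called 0 entries. At an unadjusted p under 0.05 it listed 6 trafficking genes for loss of mir-141 (6.35% of entries) and 7 for loss of mir-200c (12%). On simulated data for loss of mir-200c this small fit recovered 0% of genes moved by 1 and 61% of those moved by 2.

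Among the Rab GTPases, RAB32 had the highest ratio of set 1. RAB32 directs cargo to lysosome-related organelles and to mitochondria-associated ER membranes. Its log2 ratios in set 1 were 0.16 in the mir-141 clone, 2.11 in the mir-200c clone and 1.07 in the double clone. Both set 1 clones without mir-200c were high, and the clone without mir-141 alone was near wild type. The double knockout exceeded the mir-141 knockout by 0.91, so RAB32 was the 1 trafficking gene at or above 0.5 for loss of mir-200c in both backgrounds, as were 1.89% of entries; 0 lay at or below −0.5 in both (0.541%). The set 1 model gave a difference of 1.51 ± 0.31 (SE) for loss of mir-200c, with limma adjusted p = 0.340. It averages the differences of 2.11 and 0.91. This SE, like every SE here, is the moderated value of limma. It draws on the spread of all genes and is not the spread of 1 gene alone. The double knockout was also 1.04 below the mir-200c knockout. Set 2 listed 0.46, 0.05 and 0.31. No match to bases 2 to 8 of either microRNA was found in the longest annotated 3′ UTR of RAB32.

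RAB27B, which docks secretory vesicles and exosome-forming bodies at the plasma membrane, was high in both clones of set 1 that lack mir-141. Its ratios were 0.73 in the mir-141 clone, 0.18 in the mir-200c clone and 0.91 in the double clone. The double knockout lay 0.73 above the mir-200c knockout, so RAB27B was the 1 trafficking gene at or above 0.5 for loss of mir-141 in both backgrounds, as were 1.07% of entries; 0 lay at or below −0.5 in both (0.627%). The set 1 model gave 0.73 ± 0.13 (SE) for loss of mir-141 (limma adjusted p = 0.459). Set 2 listed −0.11, 0.73 and 0.44. The 3′ UTR of RAB27B holds 1 site of 7 bases for each microRNA, and both are shown because the ratio was high in the set 1 clones without mir-141 (capitals mark the site; GRCh38, plus strand).
RAB27B miR-141-3p site, chr18:54889567-54889573: agaatagtcaaCAGTGTTcaaaagaattg
RAB27B miR-200c-3p site, chr18:54890786-54890792: aaaaaactggcCAGTATTtttgttaatgt
The neighbours of RAB27B on chromosome 18 had a median of 0.60 in the mir-141 clone and 0.77 in the double clone.

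RAB3A, a regulator of secretory granule release, had the lowest Rab ratio of set 1, with −0.24 in the mir-141 clone, −1.003 in the mir-200c clone and 0.12 in the double clone. The double knockout was 1.12 above the mir-200c knockout, so of the set 1 clones without mir-200c the low value was seen in 1. Set 2 listed −0.17, −0.11 and 0.01 for RAB3A. RAB43, a Golgi Rab, had 0.22, 0.65 and 0.26, and RAB20, an endosomal Rab, had 0.03, −0.46 and −0.38. RAB20 was low in both set 1 clones without mir-200c (set 1 model −0.44 ± 0.13 SE, limma adjusted p = 0.401). For RAB20 the listed set 2 values were −0.23, 0.32 and 0.07. RAB4B had −0.25 in the mir-141 clone, 0.27 in the mir-200c clone and −0.02 in the double clone of set 1. Its listed set 2 values were −0.20, −0.28 and −0.45.

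Rabs that mark the main compartments lay between −0.46 and 0.32 in set 1. RAB5A of early endosomes had 0.16, 0.17 and −0.07 across the mir-141, mir-200c and double clones of set 1. RAB7A of late endosomes had 0.03, −0.09 and −0.22, and RAB6A of the Golgi, which has a near-identical gene copy and is uncertain, had −0.09, −0.31 and −0.18. Of the recycling Rabs, RAB11A had 0.25, 0.25 and 0.32 and RAB11B had 0.13, −0.46 and −0.01, while RAB25, the epithelial member of that group, had 0.07, 0.11 and 0.14. In the whole family, 23 of 39 Rabs lay above 0 in the mir-141 clone, 21 in the mir-200c clone and 18 in the double clone, with medians of 0.03, 0.01 and −0.01, beside 4451, 4436 and 4277 of all 9245 entries above 0. RAB22A, which acts in endosomal sorting, had −0.65 ± 0.21 (SE) for mir-200c knockout versus wild type over both sets (limma adjusted p = 0.793), with −0.28 in set 1 and −1.02 listed in set 2.

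The ARF GTPases, which recruit coats, and the COPI coat showed small ratios. ARF1, which recruits COPI at the Golgi, had −0.07, −0.26 and −0.07 across the mir-141, mir-200c and double clones, and ARF6 of the plasma membrane had 0.14, −0.06 and 0.19. All 5 ARFs lay within −0.27 and 0.22 in set 1. COPA, a subunit of the outer COPI coat, had −0.12, −0.12 and −0.20. Of the 6 COPI subunits, 1 lay above 0 in the mir-141 clone, 3 in the mir-200c clone and 1 in the double clone, where COPB2 had the lowest value, −0.46. Set 2 listed 4, 3 and 4 of the 6 above 0.

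In the COPII coat, SEC23A was the highest gene in both set 1 clones without mir-200c. SEC23A forms the inner coat with SEC24 and activates the GTPase SAR1. Its set 1 ratios were −0.28 in the mir-141 clone, 0.18 in the mir-200c clone and 0.44 in the double clone. The double knockout lay 0.72 above the mir-141 knockout and 0.26 above the mir-200c knockout. Over both sets the difference between double and mir-141 knockout was 0.46 ± 0.19 (SE, limma adjusted p = 0.998). Set 2 listed −0.22, −0.27 and −0.02. SEC23B, its paralogue, had 0.01, −0.13 and −0.11. The test of SEC23A against SEC23B was not made.

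In the mir-200c clone of set 1, 8 of the 9 genes of the COPII coat and ER exit sites lay below 0, beside 4809 of all 9245 entries. Their median was −0.23, and SEC23A was the exception. Set 2 listed 4 of the 9 below 0 for its mir-200c clone, with a median of 0.06. SEC24D, a cargo-binding subunit, was lowest in the mir-200c clone of set 1. It had −0.30 in the mir-141 clone, −0.84 in the mir-200c clone and −0.50 in the double clone. Set 2 listed 0.39, 0.08 and 0.07 for SEC24D, the opposite sign in all 3 clones. In set 1 SEC24A had −0.33, −0.44 and −0.16, and SEC13 of the outer coat had −0.09, −0.38 and −0.25. In the double clone of set 1, 7 of the 9 lay below 0 with a median of −0.06, beside 4968 of all entries, against 5 of the 9 in set 2. All 9 lay above their value in the mir-200c clone of set 1, as did 4622 of all entries, and 3 of the 9 did so in set 2. This count and the 8 of 9 below 0 both use the mir-200c library of set 1, so they are not separate observations. With 1 library per genotype in the set, these counts carry no test.

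SEC23A has an 8-base site for each deleted microRNA, shown here with the sites of 4 other genes that lay above 0 for loss of mir-200c in both backgrounds. The 8-base miR-200c-3p sites of STX7 and STX16, also above 0 in both, are not shown. Nor are those of AP5M1 and AP5S1, which did not lie above 0 in both. The longest 3′ UTR that GENCODE 29 (GRCh38) annotates for each gene was searched for CAGTGTT or CAGTATT, with a following A for the 8-base form; capitals mark the site.
SEC23A miR-141-3p site, chr14:39033021-39033028, minus strand: tttgcttaccaCAGTGTTAtagctggttct
SEC23A miR-200c-3p site, chr14:39032285-39032292, minus strand: tcttattgaaaCAGTATTAtataatgtttg
VPS13A miR-200c-3p site, chr9:77418957-77418964, plus strand: ttatcacttgcCAGTATTAgttgatccttc
RAB18 miR-200c-3p site, chr10:27539310-27539317, plus strand: cagtaagattcCAGTATTAatttctgggca
RAB4A miR-200c-3p site, chr1:229304964-229304971, plus strand: aagttgaaatgCAGTATTAtttaaatctga
STX17 miR-200c-3p site, chr9:99968685-99968692, plus strand: aaaccaaatttCAGTATTAttggtgccaac
Only the message-sense strand of the 3′ UTR was searched, and a match does not show that the site is used.

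All 135 genes had an annotated 3′ UTR. At 7 bases or more, 12 held sites of both microRNAs, 17 of miR-141-3p only, 16 of miR-200c-3p only and 90 of neither, beside 650, 1270, 1022 and 6265 of the 9207 entries with a 3′ UTR. The 9 genes with an 8-base miR-200c-3p site were AP5M1, AP5S1, RAB18, RAB4A, SEC23A, STX16, STX17, STX7 and VPS13A. Of these, 7 lay above 0 in the mir-200c knockout and 8 lay higher in the double than in the mir-141 knockout. Beside them stand 53.2 and 61.8% of all entries with the site, and 47.8 and 46% of those without it. The 7 genes (77.8%) above 0 in both comparisons stand beside 32 of 126 trafficking genes without the site (25.4%). Over all entries the shares were 41% of 442 with the site and 28.3% of 8765 without it. The medians of the 9 genes were 0.29 for mir-200c knockout versus wild type and 0.19 for double versus mir-141 knockout, beside 0.06 and 0.06 over all entries with the site. These 2 comparisons share no library.

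**Figure D2:**
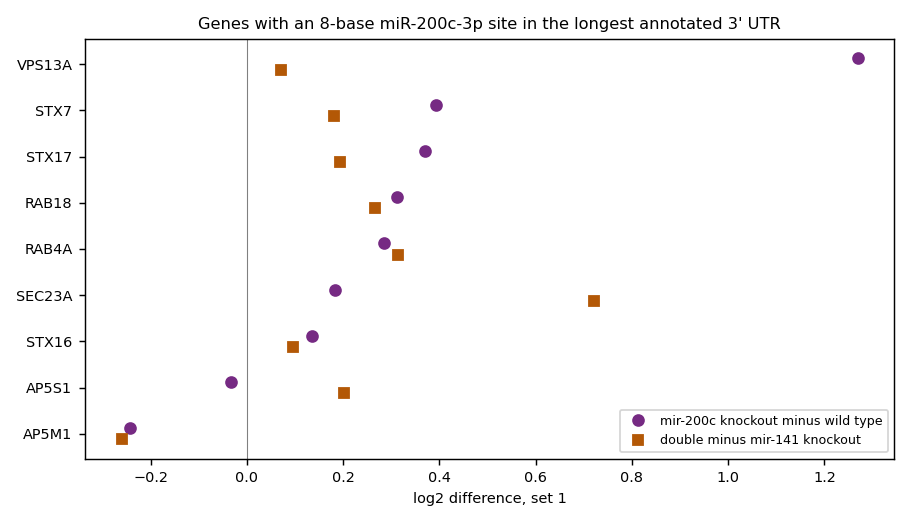
Log2 differences in set 1 (x axis) of the 9 trafficking genes with an 8-base miR-200c-3p site (y axis), for mir-200c knockout minus wild type (circles) and double minus mir-141 knockout (squares). Both symbols lie right of 0 for 7 genes, SEC23A reaches 0.72 in the second comparison, and AP5M1 lies left of 0 in both.

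RAB18, which acts at lipid droplets and the ER, had 0.31 for mir-200c knockout versus wild type and 0.27 for double versus mir-141 knockout. RAB4A, a Rab of fast endosomal recycling, had 0.29 and 0.31. STX17, the SNARE of autophagosome fusion, had 0.37 and 0.19, and STX7, a late endosomal SNARE, had 0.39 and 0.18. STX16 of the Golgi had 0.13 and 0.10. VPS13A had 1.27 and 0.07, and its ratio in the mir-141 clone was 1.10. AP5S1, an adaptor subunit, had −0.03 and 0.20, and AP5M1, another subunit of that complex, had −0.24 and −0.26. None of these differences passed the adjusted threshold in any limma contrast. Set 2 listed 0.36, 0.03 and 0.16 for RAB18 across its mir-141, mir-200c and double clones, and 0.08, 0.06 and −0.06 for RAB4A. It listed −0.18, −0.06 and 0.10 for STX17, 0.03, −0.16 and −0.15 for STX7, and 0.46, 0.55 and 0.60 for STX16. For AP5S1 it listed 0.61, 0.21 and 0.30, and for AP5M1 −0.22, −0.001 and −0.16.

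Sites of 7 bases or more gave a smaller contrast. Of the 28 trafficking genes with any miR-200c-3p site, 11 (39.3%) lay above 0 in both comparisons, beside 26.2% of those without a site. Over all entries the shares were 36.1% with a site and 27.3% without. Sites lie more often in long 3′ UTRs, and the median 3′ UTR length was 4386.5 bases for trafficking genes with sites of both microRNAs and 1093 bases for those with neither. The part of length in these shares was not tested.

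The 10 genes with an 8-base miR-141-3p site were AP2B1, RAB10, RAB22A, RAB31, RAB3D, SEC23A, SEC24A, STX16, STX6 and VAMP3. Of these, 4 lay above 0 in the mir-141 knockout, 8 lay higher in the double than in the mir-200c knockout, and 3 (30%) lay above 0 in both. Over all entries with the site the 3 shares were 53, 57.6 and 34%. Over those without it they were 47.9, 49.5 and 24.4%. VAMP3, a SNARE of recycling endosomes, had 0.25 for mir-141 knockout versus wild type and 0.30 for double versus mir-200c knockout. AP2B1, a subunit of the plasma membrane clathrin adaptor, had 0.27 and −0.18. STX6 had −0.10 and 0.16, RAB10 had −0.15 and 0.01, RAB31 had 0.07 and 0.13, and RAB3D had 0.00 and 0.25. The lowest of the 10 genes in the mir-141 clone were SEC24A (−0.33) and SEC23A (−0.28).

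Across all 135 genes, loss of mir-200c gave related differences in the comparisons that share no library. Pearson r between mir-200c knockout versus wild type and double versus mir-141 knockout was 0.370 (Spearman rho 0.339, n = 135 genes), and without RAB32 r was 0.233 (rho 0.324). Over all entries r was 0.340 (rho 0.348). The sign was the same for 80 of the 135 genes (59.3%), beside 63% of all entries. For loss of mir-141, r was −0.0154 (rho −0.0645) over the trafficking genes and 0.181 (rho 0.0836) over all entries, and 64 genes (47.4%) had the same sign, beside 51.8%. These correlations are across genes, which are not independent replicates, and describe 4 libraries.

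**Figure D3:**
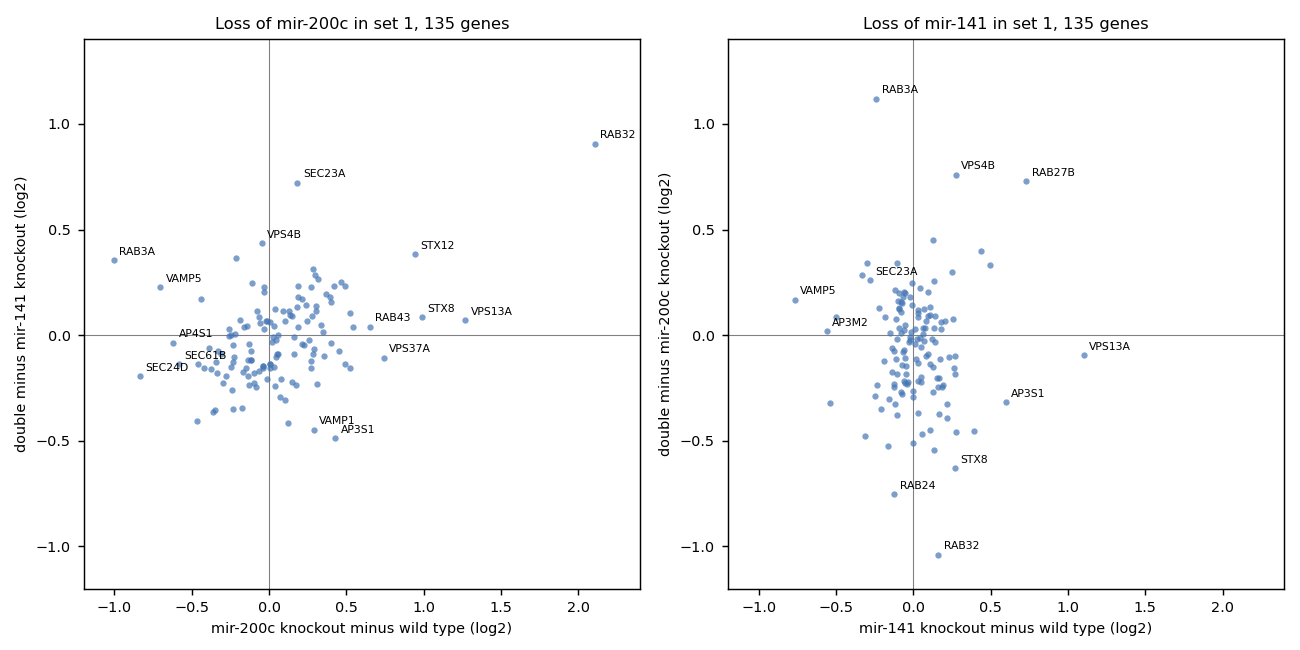
Log2 differences of 135 trafficking genes in set 1 for loss of mir-200c (left: mir-200c knockout minus wild type on x, double minus mir-141 knockout on y) and loss of mir-141 (right: mir-141 knockout minus wild type on x, double minus mir-200c knockout on y). Each point is a gene. RAB32 stands alone at the upper right on the left side (2.11 and 0.91), and RAB27B stands at the upper right on the right side (0.73 and 0.73).

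Of the 17 SNAREs, 10 lay above 0 in the mir-141 clone, 13 in the mir-200c clone and 11 in the double clone of set 1, with medians of 0.05, 0.19 and 0.07. Over all 9245 entries, 4451, 4436 and 4277 lay above 0. Set 2 listed 8, 8 and 9 SNAREs above 0, with medians of −0.06, −0.01 and 0.02. STX8, a late endosomal SNARE, had 0.27 in the mir-141 clone, 0.99 in the mir-200c clone and 0.36 in the double clone. STX12, a recycling endosome SNARE, had 0.11, 0.94 and 0.49, with 0.66 ± 0.18 (SE) for loss of mir-200c in the set 1 model (limma adjusted p = 0.391). STX3, an apical membrane SNARE of epithelia, had 0.05, 0.40 and 0.20, and VAMP8 had −0.05, 0.24 and 0.09. STX18, a SNARE of the ER, had −0.03, −0.35 and −0.38.

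VAMP5, a SNARE-like protein first described in muscle, was low in all 3 clones of set 1, with −0.77 in the mir-141 clone, −0.71 in the mir-200c clone and −0.54 in the double clone. Set 2 listed −0.06, 0.04 and −0.26. VAMP5 and AP4S1 were the 2 trafficking genes at or below −0.5 in all 3 clones of set 1 (0.855% of entries). VPS13A was the 1 at or above 0.5 in all 3 (1.57%).

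VPS13A, a bridge-like lipid transfer protein at membrane contacts, had 1.10 in the mir-141 clone, 1.27 in the mir-200c clone and 1.17 in the double clone of set 1. Set 2 listed 1.98, 0.39 and 0.82. All 6 ratios lay above 0, as they did in other trafficking genes, among them RAB32, RAB18 and STX12. Over both sets the mir-141 knockout differed from wild type by 1.54 ± 0.37 (SE, limma adjusted p = 0.998) and the double knockout by 1.00 ± 0.37 (adjusted p = 0.740). The double knockout differed little from either single knockout of set 1, by 0.07 from the mir-141 and −0.10 from the mir-200c knockout. Its relatives VPS13B (−0.08, −0.02 and −0.01) and VPS13D (−0.06, −0.19 and 0.02) stayed near wild type in set 1.

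The adaptor complexes had medians of −0.05, −0.12 and −0.06 over 23 genes across the mir-141, mir-200c and double clones of set 1. Over all entries the medians were −0.01, −0.02 and −0.03. Below 0 lay 13, 13 and 14 of the 23 genes, beside 4794, 4809 and 4968 of all 9245 entries. Set 2 listed adaptor medians of 0.03, 0.04 and −0.01. AP5Z1, a subunit of the late endosomal adaptor AP-5, had −0.54, −0.34 and −0.67 in set 1. Signs differed between genes for subunits of AP-3, which sorts cargo to lysosome-related organelles. AP3S1 had 0.60, 0.43 and 0.11, AP3M1 had 0.07, −0.13 and −0.16, and AP3M2 had −0.56, −0.21 and −0.19. AP2M1, the cargo-binding subunit of the plasma membrane adaptor, had −0.05, −0.18 and −0.40 in set 1, beside listed values of 0.02, −0.49 and −0.68 in set 2. Over both sets its double knockout differed from wild type by −0.54 ± 0.17 (SE, limma adjusted p = 0.740), and its chromosomal neighbours had a median of −0.31 in that clone of set 1.

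Endosomal sorting complexes showed a few single genes. VPS37A, an ESCRT-I subunit, had 0.39, 0.74 and 0.29 across the mir-141, mir-200c and double clones. VPS36 of ESCRT-II had −0.23, −0.36 and −0.60, and VPS37C had −0.31, 0.30 and −0.18. Set 2 listed 0.23, 0.42 and 0.60 for VPS36, the opposite sign in all 3 clones. In set 1 VPS35, the scaffold of the retromer, had −0.09, −0.23 and −0.19. In the tethering complexes, VPS18, a core subunit of HOPS and CORVET, had 0.11, 0.30 and 0.39, and VPS33A of HOPS had −0.21, 0.04 and −0.31. VPS51 of the GARP complex had −0.19, −0.03 and −0.16 in set 1, beside listed values of 3.43, 2.05 and 2.00 in set 2.

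At the ER translocon, SEC61B, a subunit of the channel, had −0.10, −0.58 and −0.24 across the mir-141, mir-200c and double clones. Over both sets its mir-200c knockout differed from wild type by −0.47 ± 0.15 (SE, limma adjusted p = 0.793). SEC61A1, the channel itself, had −0.12, −0.39 and −0.18. SEC61G and SEC61A2, also of the channel, had 0.11, 0.16 and 0.02, then 0.17, 0.31 and −0.06. Of the 8 translocon and signal peptidase genes, 5, 5 and 4 lay above 0 in set 1, with medians of 0.13, 0.16 and −0.02. Set 2 listed 4, 4 and 3 of the 8 above 0. Over all 9245 entries in set 1, 4451, 4436 and 4277 lay above 0. SEC62, which assists post-translational import, had 0.44, 0.21 and 0.61, and set 2 listed −1.68, −0.10 and −1.71, the opposite sign in all 3 clones.

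Some ratios moved with whole stretches of a chromosome. RAB27B, SEC11C and VPS4B lie on chromosome 18 (RAB27B starts at position 54717860, SEC11C at 59139477 and VPS4B at 63389190, GRCh38). These 3 genes with up to 10 measured neighbours on each side make 35 entries. All 35 lay above 0 in the mir-141 knockout (median 0.57) and all 35 in the double knockout (median 0.84), while 18 lay above 0 in the mir-200c knockout (median 0.00). The other 83 measured entries of the chromosome had medians of 0.06, 0.11 and 0.06 in the mir-141, double and mir-200c knockout. The window was set by the 3 genes, and the raised ratios reach beyond it. Just before it, the entries from PIK3C3 to CTIF had 0.48 to 0.90 in the mir-141 and 0.77 to 1.31 in the double knockout. After it, those from PQLC1 to ADNP2 had −0.06 to 0.66 and 0.07 to 0.87. SEC11C, a signal peptidase subunit, had 0.50, 0.16 and 0.49 across the mir-141, mir-200c and double clones, and VPS4B, the ATPase that disassembles ESCRT-III, had 0.27, −0.05 and 0.71. With the median of its neighbours subtracted, RAB27B had 0.13 in the mir-141 knockout and 0.15 in the double knockout, SEC11C had −0.01 and −0.25, and VPS4B had −0.25 and −0.16. Whether the microRNA site or the stretch goes with the ratio of RAB27B cannot be told apart in these clones.

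**Figure D4:**
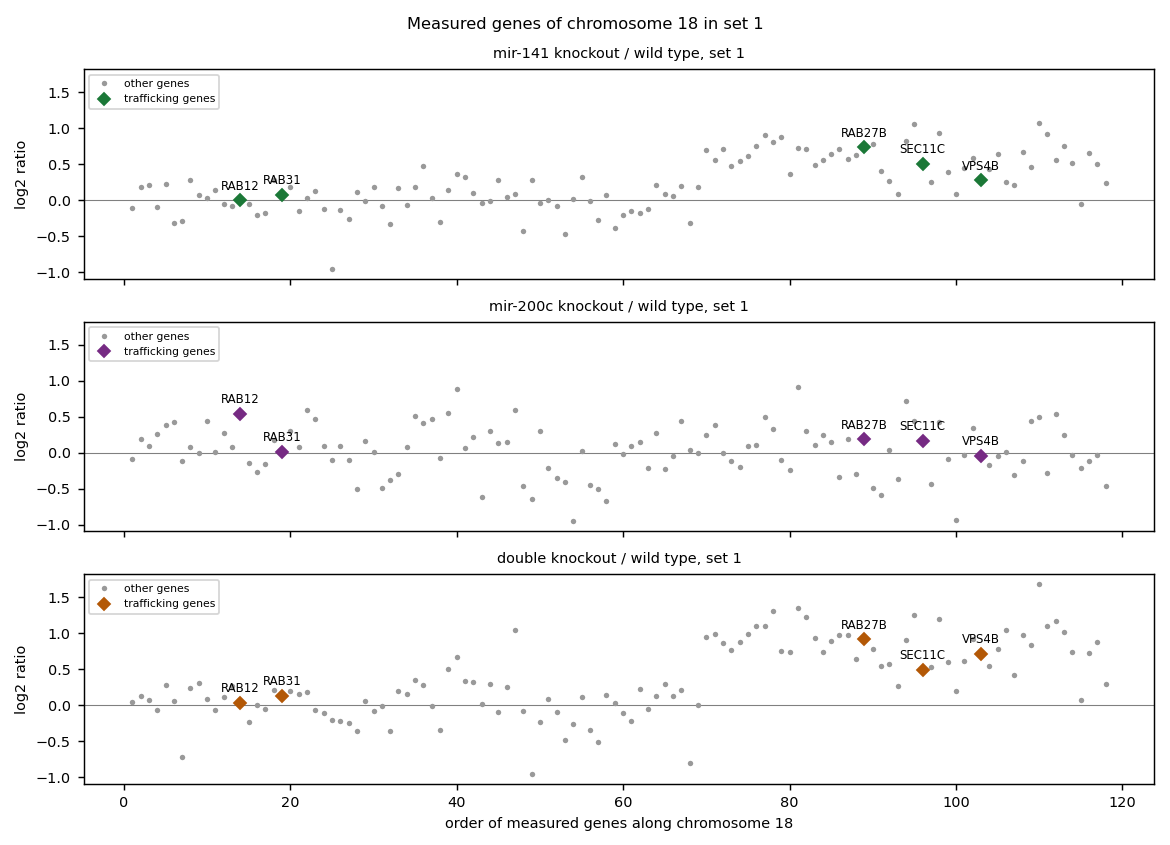
Log2 ratios to the set 1 wild type (y axis) of the measured genes of chromosome 18 in chromosomal order (x axis, rank), across the mir-141, mir-200c and double clones. Diamonds are trafficking genes and grey points all others. The stretch around RAB27B, SEC11C and VPS4B has a median of 0.57 in the mir-141 and 0.84 in the double knockout and of 0.00 in the mir-200c knockout.

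AP4S1 is a small subunit of the adaptor AP-4, encoded on chromosome 14. Its set 1 ratios were −0.50 in the mir-141 clone, −0.62 in the mir-200c clone and −0.54 in the double clone. Set 2 listed 0.37, 0.31 and 0.37 for AP4S1, the opposite sign in all 3 clones. In set 1 the neighbour STRN3 of AP4S1 was lower, with −1.30, −1.37 and −1.60. SCFD1, which encodes a Sec1/Munc18 partner of SNAREs between ER and Golgi, is 2 entries away and had −1.57, −1.92 and −1.76. The median of the neighbours of AP4S1 was −0.53, −0.48 and −0.32. RAB2A, a Rab of the ER to Golgi route on chromosome 8, had −0.13, −0.24 and −0.48 in the 3 clones, with neighbour medians of −0.23, −0.03 and −0.56. By contrast, the neighbours of RAB32 had medians of 0.03, 0.40 and −0.02, which left RAB32 at 1.71 in the mir-200c clone and 1.09 in the double clone after subtraction. The neighbour medians of VPS13A (−0.02, −0.15 and −0.05), SEC23A (0.02, 0.04 and −0.07) and VAMP5 (−0.07, −0.09 and −0.10) were near 0.

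The wider trafficking machinery was read from 12 gene lists of regulators, effectors, tethers, receptors and partners, with 343 measured genes, none of which passed an adjusted p under 0.05. At or above 0.5 lay 4 of them in the mir-141 clone, 28 in the mir-200c clone and 14 in the double clone (1.17, 8.16 and 4.08%, beside 3.55, 9.05 and 7.36% of all entries). At or below −0.5 lay 4, 16 and 9 (1.17, 4.66 and 2.62%, beside 2.63, 7.92 and 5.06% of all entries). The Rab effectors (35 measured) had medians of 0.02, 0.21 and 0.17, and the ESCRT partners (21 measured) had −0.02, 0.26 and −0.00. The ER translocation partners (23 measured) had −0.03, −0.19 and −0.11, and the other lists had medians between −0.05 and 0.17. Among Rab effectors, MICAL1, an actin oxidase, had −0.33, 1.69 and 0.59, and SYTL4, which tethers secretory granules, had 0.29, 1.15 and 0.63. Set 2 listed −0.99, −1.33 and −1.24 for MICAL1 and −0.65, −0.41 and −0.65 for SYTL4. TMF1, a Golgi tether, had 1.65, 1.95 and 1.99 in the 3 clones of set 1, beside listed values of 0.90, 0.51 and 0.50 in set 2.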

How the data were processed

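Poly(A) RNA from 8 libraries was sequenced, per the labels' protocols. TopHat2 and the build GRCh37.p10 are named in the submitters' processing notes; the counting, scaling and filtering steps are not given in those sources. The authors deposited log2 ratios to the set's own wild type, not levels, so depth is unknown and no filter on level was possible. The design had foreseen that the file might hold ratios. Each wild type was therefore set to 0 in limma 3.58.1 (R 4.3.3), fitted to all 9245 entries with 4 genotypes and the set as a block (3 residual degrees of freedom). The threshold for a call was a Benjamini-Hochberg adjusted p under 0.05. Because the labels name the shared set and each ratio was formed inside it, libraries are paired by set. P-values measure only the spread between these samples. The fit was tested on simulated data.

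The set 1 model, the interaction and the subtraction of neighbour medians (up to 10 entries on each side) were added after seeing the data. Sites and positions came from GENCODE 29 (GRCh38). Genes named were the 5 highest and lowest per clone and per loss in both backgrounds, those beyond 0.5 in all 3 clones, those with 8-base sites and 16 fixed by name; others were named after their values were seen. The genes and lists were chosen with earlier results of these data known.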

Additional observations from a re-analysis of the deposited data

How the results depend on the processing

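The counts of 0 calls from limma in the 6 contrasts, the interaction and both set 1 models were also 0 with median centring and with robust moderation. The fit with no replicate block gave 0 calls in the 6 contrasts and the interaction. Since every ratio is already taken against the wild type of its own set, this fit does not remove the pairing by set and shows nothing about it. Leaving out 1 library at a time gave 0 to 1 called entries for mir-141 knockout versus wild type, mir-200c knockout versus wild type, double versus mir-200c knockout, mir-200c versus mir-141 knockout and the interaction, 0 to 2 for double knockout versus wild type and 0 to 0 for double versus mir-141 knockout, with 0 trafficking genes among them. In these fits the lone library of a genotype is assumed to vary like the others. Leaving out libraries was not run for the set 1 models, which would keep 0 residual degrees of freedom. At a log2 limit of 1 instead of 0.5, 1, 2 and 2 trafficking genes lay above it across the mir-141, mir-200c and double clones of set 1, and 0, 1 and 0 below it, beside 54, 157 and 141 of all 9245 entries at or above 1 and 52, 98 and 69 at or below −1. Median centring put 8 trafficking genes (5.93%) at or above 0.5 in the double knockout instead of 5, beside 8.06% of all entries. With neighbour medians subtracted, 1 (0.741%) lay at or below −0.5 in the double knockout instead of 4, beside 4.14% of all entries, and AP4S1 in the mir-141 knockout (0.0255, as deposited −0.50) and VPS4B in the double knockout (−0.16, as deposited 0.71) changed sign. The unknown depth limits every low ratio, and the doubt over rows in set 2 limits every value over both sets.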

Other observations

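Some single genes of the wider lists, chosen after their values were seen, are given here with their log2 ratios in set 1; with 1 library per genotype in the set, their differences among clones carry no test. DENND2D, an exchange factor for Rabs, had a log2 ratio of 0.07 in the mir-141 clone, −1.09 in the mir-200c clone and 0.18 in the double clone. TBC1D16, a Rab GTPase-activating protein, had 0.32, 0.90 and 0.72, and TBC1D4, another, had −0.23, −0.73 and −0.64. ARFGAP3, an ARF GTPase-activating protein of the Golgi, had −0.66, −1.21 and −0.79. BIN1, which bends membranes, was low in both single knockouts and not in the double knockout (−1.10, −0.67 and 0.56). MYO5B, the motor that moves RAB11 vesicles and a gene of chromosome 18, had 0.72, 0.30 and 1.22. Set 2 listed 0.81, 0.42 and 0.58 for DENND2D, 0.57, 0.20 and 0.13 for TBC1D16, and values between −0.32 and 0.03 for the other 4 genes. None passed an adjusted p under 0.05 in limma.

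Over the whole table, the Spearman rho between the 3-clone means of the sets was 0.0126 with rows as listed and 0.0550 with a shift of 4 rows. The highest value in a window of 300 rows was 0.331, at a shift of −13 rows, where the rows as listed gave 0.101. No shifted value was used for any gene.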
